A study of Drosophila melanogaster with 3 samples.

Results

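The regions described here are the 2000 entries that stand directly below the optimal peak list in a chromatin immunoprecipitation (ChIP-seq) map of Empty spiracles (Ems). They were chosen by the authors' peak signal. Entries of the joint peak list, which was called on all 3 replicates together, were ordered from high to low signal, and the 2000 that follow the last optimal entry were kept, out of 30000 (6.67%). The optimal list takes the 12.9% of entries above them. The authors set it with the irreproducible discovery rate, or IDR, which scores how well ranks agree between replicates, and 0 of the 2000 members are in it. For comparison, the 2000 lowest optimal entries are called the upper neighbours, and the 2000 entries after the members the lower neighbours. The series holds a single group, 3 biological replicates, so groups could not be compared. All 3 are whole *Drosophila melanogaster* embryos aged 0 to 24 hours, with males and females pooled, of strain 16T-GFP and carrying a stably expressed transgene for ems fused at its C-terminus to eGFP. The experiment description names an anti-GFP antibody, while the antibody field of the labels reads ems. Chromatin was sonicated to 200 to 800 bp. A control library entered the peak calls but was not analysed here. As models, these samples mix many cell types and stages, the expression level of the tagged protein is not given in the sources used here, and read depth is unknown because peak lists carry no counts of reads.

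Ems is a homeodomain transcription factor. It acts as a head gap gene product, and brain, tracheae and posterior spiracles also depend on it. Many homeodomains bind short DNA sites built around TAAT, and TAATTA is a common core. A peak list of this kind runs from strong entries down into background, so entries below a reproducibility threshold can mix sites seen in several libraries with sites seen in 1.

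Sequences around member summits are shown for the patterns that the results below turn on. Each is the plus strand of the Release 6 assembly (dm6) from RefSeq, 101 bases centred on the summit, and is named by the protein-coding gene with the nearest transcription start site (TSS). In each set, members of high signal were taken that overlapped no optimal peak and whose window met the set's condition without touching an annotated UTR. The member in ems was instead chosen by its gene. It had rank 4105 in the joint list, below the coding-exon members of CG9119 and l(1)G0196 at ranks 4013 and 4035. The windows are examples, and their positions relative to the TSS also depend on how they were chosen. The first set is of promoter members, with the 8-mer TATCGATA in capitals, the element bound by the DNA replication-related element factor DREF. The summits lay 68 bp upstream of the TSS for CG10038 and CG10011 and 158 bp upstream for Tao, a protein kinase gene. The windows are chr3R:12350662-12350762, chr3R:28635117-28635217 and chrX:19579908-19580008.
CG10038: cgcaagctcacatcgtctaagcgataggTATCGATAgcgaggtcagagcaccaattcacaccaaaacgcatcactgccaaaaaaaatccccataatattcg
CG10011: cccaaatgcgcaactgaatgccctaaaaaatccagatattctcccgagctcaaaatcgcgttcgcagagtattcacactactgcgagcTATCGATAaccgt
Tao: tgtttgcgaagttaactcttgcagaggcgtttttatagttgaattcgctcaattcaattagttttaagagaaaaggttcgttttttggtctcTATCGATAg

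The next set is of members outside promoters, with ACACTG or its reverse complement CAGTGT in capitals. ACACTG shares bases with core promoter motif 1, which the factor M1BP binds. The members lie in introns near Nep1, a neprilysin peptidase gene, and Msp300, a nesprin gene, and in intergenic sequence near SmD1, a gene for a spliceosomal Sm protein. The windows are chrX:6110011-6110111, chr2L:5145588-5145688 and chr3L:12725839-12725939.
Nep1: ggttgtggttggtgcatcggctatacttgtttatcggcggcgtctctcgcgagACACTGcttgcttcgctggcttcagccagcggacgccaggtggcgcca
Msp300: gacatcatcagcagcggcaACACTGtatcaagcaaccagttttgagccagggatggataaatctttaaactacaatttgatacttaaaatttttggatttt
SmD1: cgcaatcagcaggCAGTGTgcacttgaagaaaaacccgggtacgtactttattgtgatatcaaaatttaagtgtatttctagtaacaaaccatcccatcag

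A pair of members with the homeodomain core TAATTA in capitals lies in intergenic sequence near Eaf6 (chr3L:5611890-5611990) and in an intron near HDAC4, a histone deacetylase gene (chrX:13274552-13274652). Both windows were poor in G and C, with 20.8% for the window near Eaf6 and 17.8% for the window near HDAC4.
Eaf6: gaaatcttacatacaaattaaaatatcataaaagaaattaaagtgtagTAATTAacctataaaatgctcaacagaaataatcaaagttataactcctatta
HDAC4: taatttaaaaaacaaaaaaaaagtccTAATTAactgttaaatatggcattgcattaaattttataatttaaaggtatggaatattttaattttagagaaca

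The last set is of members in coding exons, shown for their base composition, with no part in capitals. They lie in Abl, a tyrosine kinase gene (chr3L:16646889-16646989), in RpL4, a ribosomal protein gene (chr3R:27923439-27923539), in CG5181 (chr2L:7409097-7409197) and in ems itself (chr3R:13902923-13903023). G and C made up 75.2% of the window in Abl, 67.3% in RpL4, 69.3% in CG5181 and 69.3% in ems.
Abl: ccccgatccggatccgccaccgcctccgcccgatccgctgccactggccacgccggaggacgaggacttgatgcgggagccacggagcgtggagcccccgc
RpL4: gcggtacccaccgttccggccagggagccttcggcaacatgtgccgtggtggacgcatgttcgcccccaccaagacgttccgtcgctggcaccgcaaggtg
CG5181: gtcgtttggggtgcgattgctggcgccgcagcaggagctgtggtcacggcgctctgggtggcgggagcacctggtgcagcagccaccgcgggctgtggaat
ems: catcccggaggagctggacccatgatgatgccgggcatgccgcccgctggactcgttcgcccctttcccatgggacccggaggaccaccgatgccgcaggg

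Replicate 1 stood apart from the other 2 in values that also enter the results below. In its own list, coding exons held 13.6% of the summits with the members' ranks, against 4.35% in replicate 2 and 5.05% in replicate 3. The mean GC content of 201 bp windows on those summits was 44.3% in replicate 1, 39.6% in replicate 2 and 41.2% in replicate 3. The lists had 3527, 4276 and 4599 entries with a q-value under 0.01 in replicates 1, 2 and 3, and each had 30000 entries in all. Means over the 3 replicates' lists are given below with all 3 and, for the differences and motif ratios, also without replicate 1.

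The signal of the members ran from 78.8 to 104 with a median of 89.1 in units that are not stated. All 2000 were 404 bp wide. Their q-values ran from 0.00270 to 0.0410 with a median of 0.0123, and 830 of them (41.5%) were under 0.01, whereas all 2000 upper neighbours were. At the upper edge, the first member (nearest TSS grim, a gene that promotes cell death) had a signal of 104.246, and the last optimal entry (at the promoter of Calr, the calreticulin gene) had 104.262. At the lower edge, the last member (in an intron of jing, a zinc finger gene) had 78.78, and the next entry (in a coding exon of Sry-delta, a zinc finger gene) had 78.76. These values define the members and support nothing further. Judged by the best-ranked overlapping entry, the single replicates ordered these 4 entries differently. For jing the overlapping entries ranked 2530, 1794 and 2238 in replicates 1, 2 and 3, well above its joint rank in each. For Sry-delta they ranked 2992, 17076 and 8984. Whether these ranks describe the entries themselves or a neighbouring peak was not tested.

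Nearly all members had a counterpart in every replicate's list, but few had a high rank in all 3. A match is an overlap of at least 1 bp. Unless a match by summit is named, a member's rank in a replicate is that of its best-ranked overlapping entry. Within the whole lists, 1894 members (94.7%) matched in replicate 1, 1939 (96.95%) in replicate 2 and 1984 (99.2%) in replicate 3. None was missing from 2 or more lists, and 183 were missing from 1. Matches in all 3 whole lists were found for 90.85% of the members, against 41.98% of all joint entries. The share was 98.65% in the upper neighbours and 76.5% in the lower neighbours, so it was not particular to the members. The top set of a replicate is defined as its highest entries, as many as the optimal list and the members hold together. Within the top sets the shares of the members were 48.2%, 56.95% and 61.9% in replicates 1, 2 and 3. Those of all joint entries were 22.5%, 22.6% and 22.7%. Of the 2000, 270 were there in all 3 replicates (13.5%, 95% exact binomial interval 12.03 to 15.1%, which covers counting error only), 876 (43.8%) in 2, 779 (38.95%) in 1 and 75 (3.75%) in none. Over all 30000 joint entries, 13.4% were there in all 3, of which most were optimal entries, 3230 of 4019. Of the upper neighbours 69.25% were there in all 3, and of the lower neighbours 5.25%. The joint list was called from the same reads, so no test was made of these shares.

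**Figure D1:**
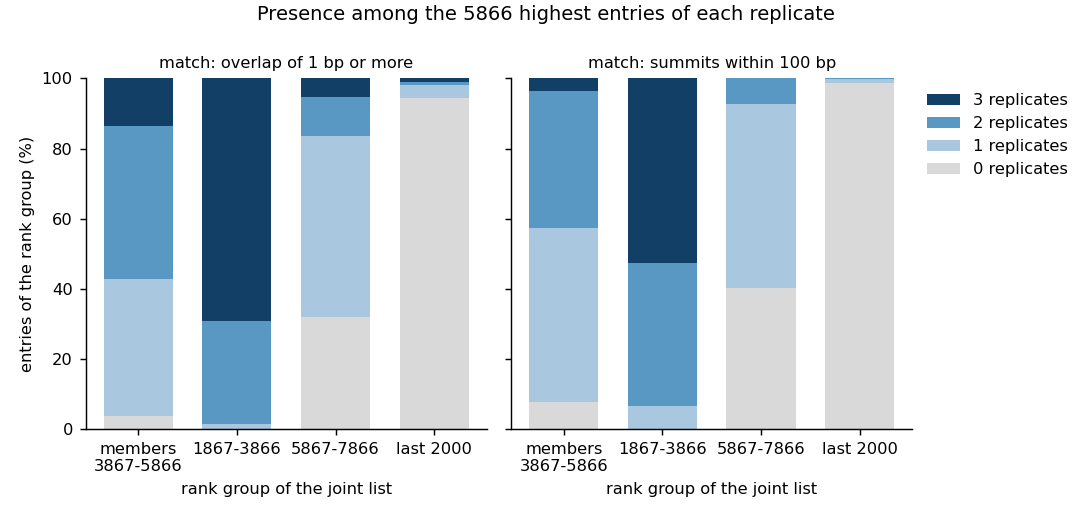
Stacked bars give the share of each rank group of the joint list (x axis) that was found in the top sets of 0, 1, 2 or 3 replicates (y axis, %), by overlap of at least 1 bp (left) and by summits within 100 bp (right). Presence in all 3 replicates took 13.5% of the members by overlap and 3.45% by summit distance, and of the upper neighbours 69.25% and 52.6%.

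The share matched in all 3 replicates rested in large part on members beside an optimal peak. An optimal peak was overlapped by 121 members (6.05%), whose summits lay 199 to 339 bp from its summit, with a median of 204 bp; 79 of these 121 were promoter members and 34 intronic. By overlap, 114 of the 121 (94.2%) were matched in all 3 replicates, and by summits within 100 bp 4 (3.31%) were. A replicate's counterpart of the neighbouring optimal peak also counts as an overlap, and its part in the 94.2% was not tested. Of the other 1879 members, 156 (8.30%, 95% interval 7.09 to 9.64%) were matched in all 3 replicates by overlap. With summits required to lie within 100 bp, the share of all members fell to 69 of 2000 (3.45%, interval 2.69 to 4.35%), against 52.6% in the upper neighbours and 0 of 2000 in the lower neighbours. How the caller split neighbouring summits is not given in the sources used here.

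The 15 members with the best ranks over the 3 replicates, judged by the worst of their 3 ranks, all belonged to this kind, 199 to 253 bp from an optimal summit. By nearest gene they were CG3552, CG12769, Fhos (a formin), jigr1, Son, bmm (a triglyceride lipase), CG2246, zfh1 (a zinc finger homeodomain factor), CG3764, shn (a zinc finger factor of Dpp signalling), ush (a cofactor of GATA factors), MRP (a transporter), Glyp (glycogen phosphorylase), Vinc (vinculin) and Pgk (phosphoglycerate kinase). The member at CG3552, for example, ranked 5049 in the joint list, and the overlapping entries ranked 49, 54 and 28 in replicates 1, 2 and 3. An optimal summit lay 212 bp from this member. The member in an intron near ush ranked 4154, with overlapping entries at ranks 645, 609 and 615. How far these replicate ranks describe the neighbouring strong peak was not tested.

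Among the 1879 members outside optimal peaks, matched by summit, the 12 with the best worst rank over the 3 replicates are named here. This list was chosen after its values were seen. The member in an intron of Vha16-1, which encodes a subunit of the vacuolar proton pump, ranked 3819, 4167 and 4128 in replicates 1, 2 and 3 and 4465 in the joint list (chr2R:6630476-6630879). The promoter member of Chd64 (chr3L:4122195-4122598), 9 bp upstream of the TSS, ranked 4470, 4208 and 4222. The promoter member of Ogdh, which encodes a subunit of the oxoglutarate dehydrogenase complex, ranked 4489, 3915 and 4584. The others lay at the promoters of CG43367, Rbfox1 (a splicing factor), Irp-1A (an iron regulatory protein), Vha26 (another pump subunit), pippin and CG2765, in introns of Kdm2 (a histone demethylase) and Pif1A, and in intergenic sequence near Atf3, a bZIP factor gene. All 12 had a rank of at most 4960 in every replicate, but not all had similar ranks, since Rbfox1 had 2290, 3070 and 4451 in replicates 1, 2 and 3.

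Ranks that agreed closely between replicates were uncommon. Summits within 100 bp were found in all 3 whole lists for 1190 of the members outside optimal peaks, and among these the worst of the 3 ranks was a median of 2.79 times the best (quartiles 1.90 and 4.24). In the upper neighbours the median was 2.24 times, over 1647 entries. The ranks were within 1.5 times of each other for 138 of the 1190. By overlap, the median rank of the members was 5764.5 in replicate 1, 5241 in replicate 2 and 5169.5 in replicate 3, and the middle 80% of ranks ran from 2383 to 15773 in replicate 1, from 2821 to 12583 in replicate 2 and from 3013 to 9780 in replicate 3. Replicate 1 had the widest spread of ranks of the 3.

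Promoters remained the most frequent location. Each summit was put in 1 of 7 classes in a fixed order, and a promoter is the 500 bp to either side of a protein-coding TSS in the Ensembl annotation. Of the 2000 member summits, 946 (47.3%, 95% interval 45.1 to 49.5%) were in promoters, against 1033 of 2000 (51.65%) in the upper neighbours, while promoters make up 11.5% of the bases of the 6 chromosome arms. Introns held 647 (32.35%), against 30.1% in the upper neighbours and 39.3% of bases. Intergenic sequence held 271 (13.55%), against 15% in the upper neighbours and 28.8% of bases. Coding exons held 76 (3.8%, interval 3.01 to 4.73%), against 11 (0.55%, interval 0.275 to 0.982%) and 13.3% of bases. The remaining members were 16 in 5' UTRs, 16 in 3' UTRs and 28 in other exons. The classes of the joint-list members are a description, and the counting intervals treat regions as independent.

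**Figure D2:**
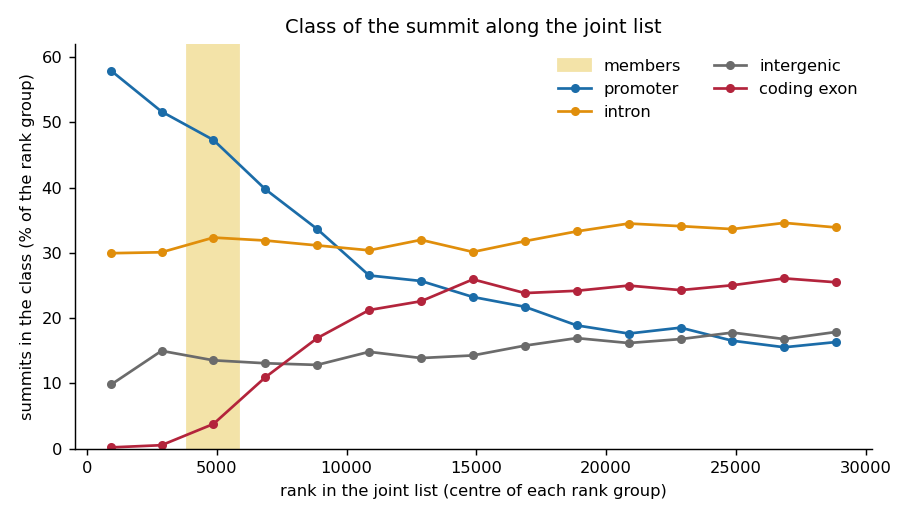
The share of summits (y axis, %) in promoters, introns, intergenic sequence and coding exons is plotted for 15 consecutive rank groups of the joint list down to rank 29866 (x axis, centre of each group), with the members' ranks shaded. In the upper neighbours, the members and the lower neighbours, the promoter share was 51.65%, 47.3% and 39.75%, and the coding-exon share 0.55%, 3.8% and 10.95%.

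The same gradient ran within the members. In steps of 400 ranks, from high to low signal, promoters held 53.25%, 48.25%, 45.75%, 45.75% and 43.5% of the summits, and coding exons 12, 9, 14, 16 and 25 summits. The share matched in all 3 replicates by overlap was 25%, 13.25%, 10.5%, 9.75% and 9% over the same steps. Intron shares, between 27.75% and 35.5%, and intergenic shares, between 11.25% and 17%, had no single direction. The first 400 members had a promoter share near that of the upper neighbours, and the last 400 lay between it and the 39.75% of the lower neighbours.

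Whether the change of classes with rank recurs in single libraries was examined in each replicate's own list, with the members' rank interval set against that of the upper neighbours. The entries compared are not the members but hold the same ranks in each replicate's list. Promoters held 42.15%, 43.55% and 44.85% of the lower interval in replicates 1, 2 and 3, against 52.4%, 50.7% and 51.55% of the higher one. The groups did not overlap, and the difference was −8.03 ± 1.93 percentage points (SD, n = 3). Coding exons held 13.6%, 4.35% and 5.05% of the lower interval, against 5.75%, 0.6% and 0.9% of the higher one, a difference of 5.25 ± 2.26 points (SD, n = 3), larger in the lower interval in each replicate. Without replicate 1 these differences were −6.925 and 3.95 points. Both had p = 0.25 in a two-sided exact paired permutation test over the 3 replicates, which is the smallest p that test can give with 3 pairs, so no difference of this kind can pass 0.05 (Benjamini-Hochberg adjusted p = 0.292 over 7 classes). The intron difference was 0.967 ± 1.07 points (exact permutation p = 0.25, n = 3) and 1.225 points without replicate 1. The intergenic difference was 0.25 ± 1.19 points, with signs that differed between replicates (exact permutation p = 1, n = 3), and 0.375 points without replicate 1. Nothing in the labels says that the replicates differ beyond being biological replicates. When all 3 differences share a sign, the exact permutation test returns its smallest value whatever their size. The spread between these 3 samples is therefore given by the SD and not by that test.

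**Figure D3:**
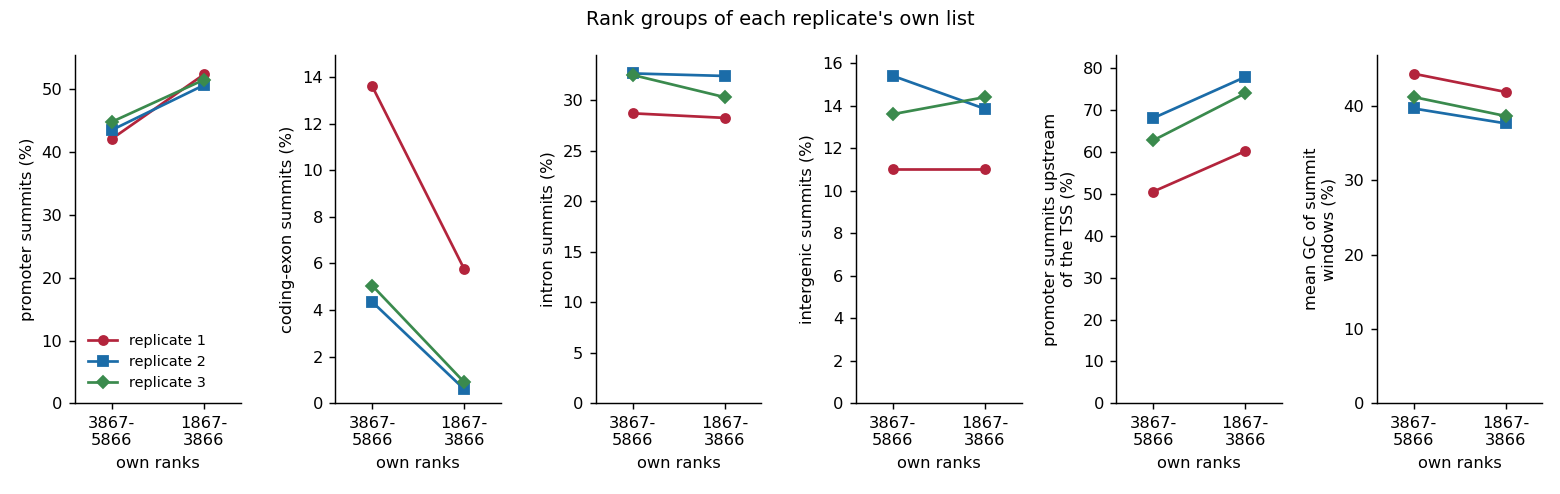
Each panel plots 1 measure (y axis, % of summits, of promoter summits or of bases) for the rank intervals of the members and of the upper neighbours in each replicate's own list (x axis), with a line for each replicate. Promoter shares and upstream shares were lower, and coding-exon shares and GC higher, in the members' interval in all 3 replicates, and replicate 1 had the highest coding-exon share in both intervals, 13.6% and 5.75%.

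Promoter members sat close to the TSS and were less one-sided than stronger promoter peaks. Their median position was 33.5 bp upstream of the nearest TSS, with quartiles at −120 and 45 bp (negative upstream), against a median of 58 bp upstream in the upper neighbours. Upstream summits made up 585 of 946 (61.8%), against 781 of 1033 (75.6%). In the replicates' own lists the upstream share was 50.5%, 68.1% and 62.8% in the members' interval in replicates 1, 2 and 3, against 60.2%, 77.9% and 74.0% in the interval above. The difference was −10.2 ± 0.863 points (SD, n = 3; exact permutation p = 0.25, the smallest possible) and −10.5 points without replicate 1. Promoter members with TSSs on both strands within 500 bp numbered 248 (26.2%), against 355 (34.4%) in the upper neighbours. In the replicates' lists this share averaged 26.4 ± 3.93%, against 31.5 ± 3.81% (SD, n = 3 each), a difference of −5.06 ± 1.27 points (exact permutation p = 0.25, n = 3) and of −5.01 points without replicate 1.

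**Figure D4:**
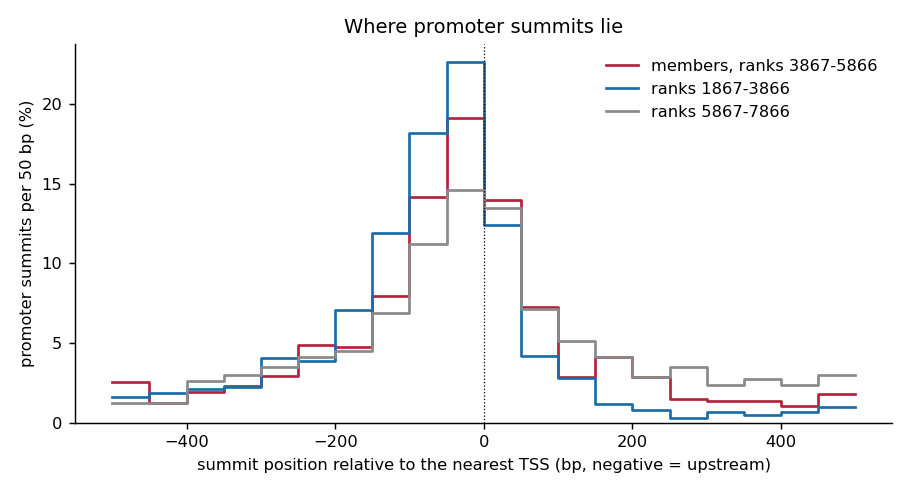
The position of promoter summits relative to the nearest TSS (x axis, bp, negative values upstream) is drawn as the share of promoter summits per 50 bp (y axis, %) for the members and for the rank groups above and below them. In the 50 bp upstream of the TSS lay 19.1% of the promoter members and 22.7% of those of the upper neighbours, while the members had more summits 50 to 100 bp downstream, 7.29% against 4.16%.

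The coding-exon members were rich in G and C. Their 201 bp windows had a mean GC content of 58.9 ± 6.96% (SD over 76 regions, which are not replicates), against 53.3% over all coding bases and 42.2% over all bases of the arms. High GC was not particular to the members. Coding-exon entries averaged 57.9% in the upper neighbours, 57.8% in the lower neighbours and 55.5% in the last 2000 ranks. GC was above 50% in 66 of the 76. Promoter members averaged 41.9%, intronic members 37.6% and intergenic members 37.7%. Over all members the mean was 40.6%, against 38.1% in the upper neighbours and 46.7% in the last 2000 ranks. In the replicates' own lists GC averaged 41.7 ± 2.38% in the members' interval, against 39.4 ± 2.21% in the interval above (SD, n = 3 each). The difference was 2.34 ± 0.294 points (exact permutation p = 0.25, n = 3) and 2.28 points without replicate 1.

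Coding-exon members lay a median of 901 bp from the nearest TSS, which can belong to a gene other than the host. The class leaves out the 500 bp to either side of a TSS by definition. For coding-exon entries of other ranks the median was 1005 bp in the upper neighbours, 1027 bp in the lower neighbours and 1825 bp in the last 2000 ranks. Of the 76 members, 62 were downstream of the nearest TSS, and 53 lay over 500 and up to 1500 bp downstream. The host gene had an optimal summit near a TSS, within 1 kb, for 33 of the 76 (43.4%, interval 32.1 to 55.3%), against 22.2% of all protein-coding genes. Among the coding-exon entries of other ranks it was 8 of 11 in the upper neighbours (72.7%), 41.1% in the lower neighbours and 37.0% in the last 2000 ranks. They were found more often in replicate 1 than in the others. In the top sets there were 50 of the 76 in replicate 1, 22 in replicate 2 and 36 in replicate 3, and 3 were in all 3 replicates. Of the members matched in both replicates 2 and 3, 10 of 663 (1.51%, interval 0.726 to 2.76%) were in coding exons, against 20 of 535 (3.74%) for replicates 1 and 3 and 11 of 488 (2.25%) for replicates 1 and 2. The part of sequencing or fragment composition in these values was not tested.

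The 5 coding-exon members of highest signal differed in which replicate ranked them best. The Abl member (chr3L:16646737-16647140, 943 bp downstream of a TSS), whose sequence is shown above, ranked 3894 in the joint list and 1810, 10174 and 5923 in replicates 1, 2 and 3. The RpL4 member (chr3R:27923287-27923690) ranked 5416, 4033 and 5550 and so was in each top set. The CG5181 member (chr2L:7408945-7409348) went the other way, with ranks of 29588, 5423 and 3499. The CG9119 member ranked 6527, 9565 and 3122, and that of l(1)G0196 ranked 1682, 11004 and 4018. Replicate 1 gave the best rank to Abl and l(1)G0196 and replicate 3 to CG5181 and CG9119.

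The ems gene itself held 1 member. This gene lies at chr3R:13901853-13904620, and the member (chr3R:13902771-13903174) ranked 4105 with its summit in a coding exon, 1120 bp downstream of the TSS and 916 bp from the single optimal summit of the gene. Overlapping entries ranked 6571, 6668 and 2985 in replicates 1, 2 and 3. By summits within 100 bp the ranks were 13181 in replicate 1 and 2985 in replicate 3, and replicate 2 had no match. The optimal entry of the gene, in a coding exon as well, ranked 3777, 4190 and 3829 in replicates 1, 2 and 3, so the 3 replicates differed less there than at the member. Since the transgene carries an additional copy of ems, DNA copies at this locus and bound protein cannot be told apart in these lists.

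Members were spread over the large chromosome arms at similar densities. They numbered 13.8 per Mb on X, 15.1 on 2L, 14.7 on 2R, 14.9 on 3L and 16.1 on 3R. Chromosome 4 had 9 member summits, 6.68 per Mb (95% exact Poisson interval 3.05 to 12.7), against 7 in the upper neighbours, 5.19 per Mb. The nearest optimal summit was a median of 5961 bp away, and 292 members (14.6%) lay within 1 kb of one, against 264 (13.2%) in the lower neighbours, 5.2% in the last 2000 ranks and 5.29% of all bases. Transposable elements held 5 member summits (0.25%), although they cover 5.93% of bases, and ncRNA genes held 94 (4.7%), against 3.71% of bases. Neither share was particular to the members. Transposable elements held 0.2% of the upper neighbours and 0.56% of all joint entries, and ncRNA genes 5% and 4.14%. Both tRNA members, at tRNA:Ser-CGA-1-4 and tRNA:Lys-CTT-1-1, belong to gene families with near-identical copies, where read placement is uncertain; no optimal summit lay in a tRNA gene.

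The members brought in many genes that the optimal list does not reach. A member summit lay within 1 kb of a TSS of 1495 of 13945 protein-coding genes (10.7%), and 1111 of these (7.97% of all) had no optimal summit that near. The other 384 had both. Optimal summits reached 3098 genes (22.2%), and both lists together 4209 (30.2%). The count of 1111 is the background for the gene lists below, which were chosen with earlier results of these data known and get no test. A gene with an optimal summit could not be added. The share of a list that was added therefore also depends on how many of its genes the optimal list reached.

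Genes of the translation machinery were prominent in the optimal list, and some of the remainder were reached by members. Of 93 genes named as cytoplasmic ribosomal proteins, 65 had an optimal summit within 1 kb, and 12 (12.9%, against 7.97% of all genes) were reached by members alone. RpS6, a small-subunit protein gene, had the member of highest signal at rank 4002, 512 bp upstream of its TSS but nearer to that of bys, and it ranked 5974, 3165 and 4372 in replicates 1, 2 and 3. The member for RpL35, at rank 4051, also lay nearer to another gene, Rab18, and ranked 13335, 5029 and 3471. The member for RpL7-like, at rank 4242, had no entry in replicate 1. Of 73 mitochondrial ribosomal protein genes, 4 were added (5.48%), mRpS22, mRpL3, mRpL36 and mRpL35, beside 29 with an optimal summit. The member at mRpL3, 246 bp upstream of the TSS, ranked 3880, 5500 and 5268 and was in the top sets of all 3 replicates, whereas those of mRpS22 and mRpL35 were weak or missing in replicate 1.

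Among the genes in the Hox, segmentation and signalling lists, 2 were reached by members alone. No member summit lay within 1 kb of a TSS in 4 lists: 8 Hox genes, 11 head gap and head patterning genes, 10 gap and trunk genes and 9 pair-rule genes. In lists this short, the share of all genes (7.97%) amounts to less than 1 gene each. For ems, a head gap gene, the member in its coding exon lay 1120 bp from the TSS, just past this limit. Of 14 segment polarity and signalling genes, 2 were added (14.3%). The member at en, a homeodomain gene of posterior compartments, lay 47 bp upstream of the TSS at rank 4790 and ranked 4755, 4195 and 8291 in replicates 1, 2 and 3. The member at Delta, which encodes a Notch ligand, lay 56 bp downstream of the TSS at rank 5566 and ranked 13801, 5149 and 6084. The en member was outside the top set in replicate 3, and the Delta member in replicates 1 and 3.

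In the remaining developmental lists 1 gene each was added, 7.14% of 14 dorsal-ventral genes, 7.69% of 13 tracheal and posterior spiracle genes and 5.88% of 17 neuroblast and proneural genes, against 7.97% of all genes. The dorsal-ventral gene was dl, the Rel-family factor Dorsal, at rank 3942 and 5273, 3542 and 6530 in replicates 1, 2 and 3. The tracheal gene was dysf, a bHLH-PAS factor of tracheal fusion cells, at rank 4601 and 3004, 7045 and 5819. The neuroblast gene was nerfin-1, a zinc finger factor of the nervous system, 483 bp upstream of its TSS at rank 4703. The nerfin-1 member ranked 3553, 5681 and 5281 and was in the top sets of all 3 replicates.

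Of 19 Polycomb and trithorax group genes, 9 had an optimal summit and 4 were added (21.1%, against 7.97% of all genes). These were kis (a chromatin remodeller), Su(z)2 (a Polycomb group protein), trx (a histone methyltransferase) and osa (a subunit of a Brahma complex). The osa member, 248 bp upstream of the TSS and at rank 5194, ranked 5116, 5202 and 5152, almost the same in all 3 replicates. The kis member ranked 10882, 1945 and 5348, that of Su(z)2 2417, 7828 and 6349, and that of trx 9778, 8209 and 3340. Of 13 insulator and architecture factor genes, mod(mdg4) was added (7.69%), at rank 4742 and 2741, 6943 and 5928 in the replicates. With lists this short, a share rests on few genes.

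Receptor and cuticle genes, which the optimal list hardly reaches, were little added to. Of 180 chemoreceptor genes, 4 (2.22%) had a member and no optimal summit. Orco, the odorant co-receptor gene, had an intergenic member 834 bp upstream at rank 4517 that was absent from the list of replicate 1. Gr63a, a gene for a carbon dioxide receptor, had one 66 bp upstream at rank 5503. Those of Ir60e and Gr32a lay nearer to CG13585 and Idua. Of 92 cuticle protein genes 1 was added, Cpr65Ea, with a summit at −993 bp. Both shares were below that of all genes.

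The sequence at member summits carried motifs of core promoters. A window of 201 bp on the summit was compared with windows of the same length centred 500 bp to each side, with motifs counted on both strands. The 6-mer CGATAG, part of the element that DREF and the insulator protein BEAF-32 bind, was in 11.7% of summit windows and 5.425% of flanks, 2.16 times as often, against 3.62 times in the upper neighbours. Where the summit was in a promoter it was in 19.98% of windows, 3.23 times as often as in the flanks. In intronic members it was in 4.33%, 0.8 times, in intergenic members in 4.06%, 1.57 times, and in coding-exon members in 6.58%, 0.769 times. Of windows centred 80 bp upstream of all protein-coding TSSs, 14.5% hold it. The 8-mer TATCGATA, which overlaps it in part, was in 85 members (4.25%), 79 of them promoter members (8.35%, interval 6.67 to 10.3%), against 6.70% of all promoter windows and 0.825% of the members' flanks. In the upper neighbours it was in 5.5%.

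The 6-mer ACACTG was more frequent at the summit than beside it in promoter, intronic and intergenic members, and not in coding-exon members. It was in 17.85% of member windows and 8.175% of flanks, 2.18 times as often, against 2.96 times in the upper neighbours. The ratio was 2.32 in promoter members, 1.95 in intronic ones, 2.72 in intergenic ones and 0.857 in coding-exon ones, while of all promoter windows 13.5% hold it. Of 2047 6-mers that were frequent enough to rank, ACACTG had the highest ratio of summit to flank. The next in order was GTGCAC with a ratio of 2.17, against 1.59 in the upper neighbours. It stood before CGATAG in the list. The fourth, ACAGTG, had 2.15, against 2.15 in the upper neighbours, and can overlap the first of these motifs on the other strand. The fifth, TATCGA, is part of the DREF element and had 2.05, against 2.59 in the upper neighbours. The second and the fourth were named after their values were seen, and no factor is assigned to them here.

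The homeodomain core was barely more frequent at the summit than beside it. TAATTA was in 12.95% of member windows and 11.575% of flanks, 1.12 times as often, against 1.33 times in the upper neighbours and 0.898 times in the lower neighbours. The control 6-mers TTTAAA and TTATAA, of the same base composition, had ratios of 1.47 and 1.42 in the members. The ratio of TAATTA was 1.06 in promoter members, 1.25 in intronic ones and 1.28 in intergenic ones, below that of both controls in each of these classes. Of the coding-exon members 1 of 76 had it. TAATTA was in 12.9% of all promoter windows. TAATCC, the core of Bicoid and Orthodenticle, had a ratio of 0.746, so it was rarer at the summit than beside it. AGATAA, the binding site of proteins such as Serpent and Pannier, had 0.946, against 1.36 in the upper neighbours.

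**Figure D5:**
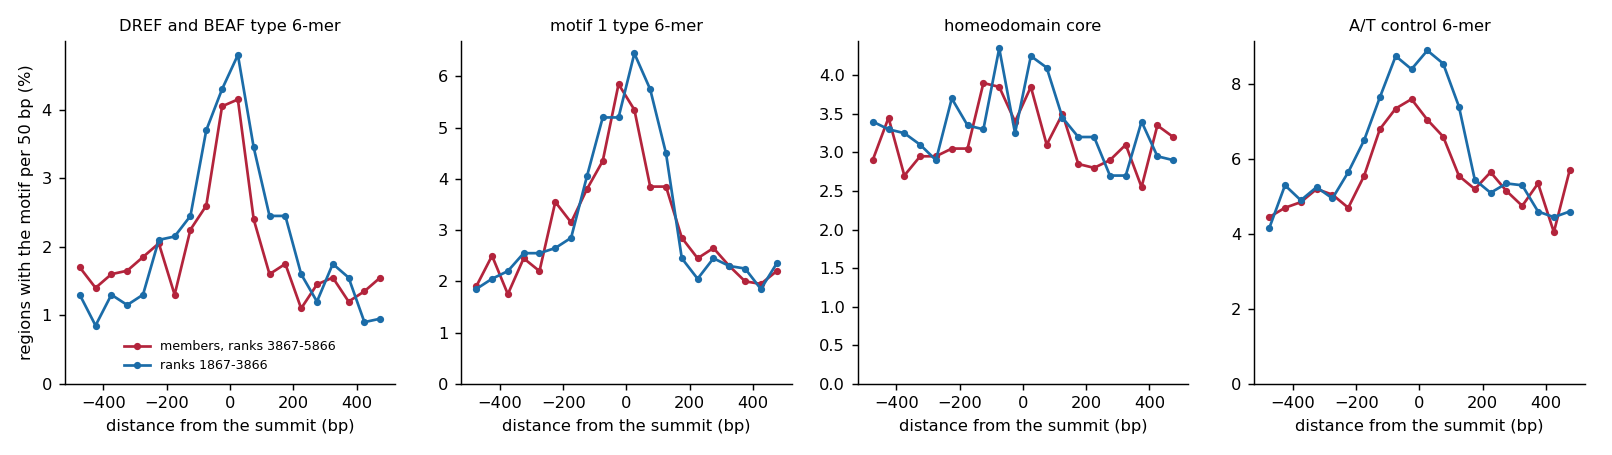
The share of regions holding a motif (y axis, % per 50 bp) is plotted against the distance from the summit (x axis, bp) for 4 motifs, in the members and in the upper neighbours. In the 50 bp on the right of the summit, the DREF and BEAF type 6-mer was in 4.15% of members and 4.8% of the stronger entries, and the homeodomain core in 3.85% and 4.25%, with a far lower central rise for the homeodomain core.

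The motif ratios were then taken in each replicate's own list in the members' interval. On the log2 scale, CGATAG had 0.90, 1.29 and 1.34 in replicates 1, 2 and 3, a mean of 1.18 ± 0.24, and ACACTG had 0.74, 0.93 and 1.14, a mean of 0.94 ± 0.20 (SD, n = 3; exact permutation p = 0.25 for each). For both, summits exceeded flanks in 3 of 3 replicates, and replicate 1 had the lowest ratio. TAATTA had −0.11, 0.49 and 0.02, a mean of 0.13 ± 0.32 (exact permutation p = 0.75, n = 3), within the spread between replicates. Without replicate 1 the means were 1.32 for CGATAG, 1.04 for ACACTG and 0.26 for TAATTA. Over 14 motifs tested, the Benjamini-Hochberg adjusted p was 0.389 for CGATAG and ACACTG and 0.75 for TAATTA. Distances to the summit were taken for the nearest site, in members with a site within 100 bp. The median was 33 bp for CGATAG, 39 bp for ACACTG and 46 bp for TAATTA, against 43 bp for the control TTTAAA. With the distance capped in this way, these medians were not tested.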

How the data were processed

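Peak lists were used as deposited by the authors. Per the deposited notes, alignments of 1 replicate (replicate lists) or of all 3 (joint list) were used with a control to call peaks, and the optimal list was derived from those lists. No caller or IDR setting is named in the sources used here. The signal column, deposited by the authors on an unstated scale, was used only to rank entries within a list. The −log10 q column deposited by the authors gave q-values, and the deposited summit offset gave summits. The dm3 lists were not used. Joins, annotation (Ensembl release 115), motif counts and exact tests were run in Python 3.11.15 with numpy 2.4.6, pandas 2.3.3 and scipy 1.17.1, tested on simulated data with 15 known answers, all recovered. Members, gene lists, motifs, tests and alternatives were chosen with earlier results of these data known. The rule for named genes takes the nearest genes of the 15 members with the best worst rank, up to 4 added genes of each list, the 5 coding-exon members of highest signal, the entries at both edges and ems; further genes were picked once values were known. 1 gene that the rule names is not reported here. The list symbols msh, sal, zw5 and Z4 were not found in the annotation. Alternatives covered matching rules, windows, rank limits and leaving out each replicate; intervals cover counting error only.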

Additional observations from a re-analysis of the deposited data

How the results depend on the processing

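The share of members matched in all 3 replicates, 13.5%, moved with every alternative tried: it was 3.45% with summits within 100 bp, 7.95% with an overlap of 0.5 of its width or more, 4.4% with as many entries per replicate as the optimal list holds, 49% with the 10000 highest, 90.85% in whole lists, 17.4% for the upper 1000 members and 8.30% for members outside optimal peaks, an alternative added after seeing the data, and 24.4 to 33.15% when 1 replicate was left out and both others had to match, a looser rule by construction. The promoter share was 38.75% with a promoter window of 250 bp, 57.6% with 1000 bp, 49.6% for the upper 1000 members and 51.7 to 56.4% for members matched in 2 replicates. The intron share was 35.8% and 26.9% with those windows and 28.8 to 32.0% in the matched members; the intergenic share was 16.1% and 11.7%, and 8.81 to 12.5%; the coding-exon share was 4.95% and 1.65%, 2.4% for the upper 1000 members and 1.51 to 3.74% in the matched members. In the replicates' own lists, the members' interval was also set against the rank interval of the lower instead of the upper neighbours. The differences then changed sign for promoters (8.4 points), coding exons (−6.85) and intergenic sequence (−0.65). That for introns kept its sign (0.233 points). Leaving out a replicate gave −0.4 to 0.775 points for intergenic sequence, and the log2 ratio of TAATTA was −0.25 to 0.42 in matched members; the cause was not tested. The added genes numbered 585 for the upper 1000 members and 238 to 343 with matched members, which are fewer members. CGATAG and ACACTG kept their direction under all 8 alternatives each, between 0.77 and 1.39 and between 0.84 and 1.29 on the log2 scale. Groups could not be paired, since the series has 1; rank intervals were paired within each replicate throughout. Depth is unknown, and 3 replicates limit every exact permutation test to p = 0.25, or 0.5 when 1 is left out. No outlier test was run, since groups of 3 are not tested, and replicate 1 was set apart by its values alone.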
